A study of Mus musculus with 12 samples.

Results

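The effect of phenobarbital on the mesenchymal cells of the mouse liver was measured on 6 arrays, 3 from treated mice and 3 from mice given water, chosen by their sample titles from the 12 arrays of the study. All animals were male C57BL/6N mice aged 12 weeks, with no transgene named. The treated mice took phenobarbital in the drinking water at 50 mg/kg/day over 14 days, and the controls drank tap water for the same time. The other 6 arrays hold hepatocytes under both treatments and served here to show which transcripts come from hepatocytes. The labels do not say whether each array is a separate mouse, nor how the fractions were separated, so the p-values below measure the spread between these arrays, which may in part be technical.

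Phenobarbital is a barbiturate that activates the constitutive androstane receptor (CAR) in hepatocytes, by blocking signalling from the EGF receptor, and with it the transcription of cytochrome P450 genes such as Cyp2b10. The non-parenchymal cells of the liver are mainly Kupffer cells, which are the resident macrophages, sinusoidal endothelial cells, stellate cells that store vitamin A, and lymphocytes. They send hepatocytes cytokines and growth factors, and hepatocytes are the cells that carry most of the liver's CAR and drug-metabolising enzymes. A fraction of non-parenchymal cells usually holds some hepatocyte RNA, since hepatocytes are large and rich in RNA.

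The values are log2 signals from Affymetrix arrays, normalised by the authors with RMA, and every level and difference below is on that log2 scale. The 6 arrays had medians between 7.40 and 7.44, and correlated with r between 0.989 and 0.996 within a group and between 0.986 and 0.997 across the groups, over all probe sets of 2 arrays. The labelled cell type was checked against its markers. Marker means were compared between the 6 mesenchymal and the 6 hepatocyte arrays, both treatments included. All 17 measured Kupffer cell markers and all 21 sinusoidal endothelial markers were at least 1 log2 unit higher in the mesenchymal arrays. Their mean levels over the 6 mesenchymal arrays were 13.51 and 12.24. Of the 16 stellate cell and fibroblast markers, 7 were higher by that margin and none lower, and Acta2, Col1a1 and Pdgfrb lay under the 40th percentile of every array. The fraction keeps its label, mesenchymal, but by these markers it is rich in Kupffer and sinusoidal endothelial cells. In such bulk RNA, fewer cells of a type and less RNA per cell cannot be told apart.

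No gene passed the test between treated and control mesenchymal cells. Of 12393 genes, 8003 exceeded the 40th percentile of the array (6.64 to 6.68) in at least 3 of the 6 arrays and were tested with limma. None of them (0%) had a Benjamini-Hochberg adjusted p under 0.05, and the smallest adjusted p was 0.998. An unadjusted p under 0.05 was reached by 232 genes (2.90%), 138 higher and 94 lower, where 400 would be expected with no effect on any gene. The 3 treated arrays all lay above the 3 controls for 327 genes (4.09%) and all below for 289 (3.61%), together 616 (7.70%). The median difference over all genes tested was 0.00, and 51.8% of the differences were positive. The central 90% of the differences ran from −0.19 to 0.27.

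The precision of this comparison bounds the effects that 3 arrays a group could have shown. The median standard error was 0.10 and the median half-width of the 95% interval 0.24. For 7638 genes (95.4%) the interval lay within −1 and 1, that is, within a 2-fold change in either direction. A difference of at least 1 was measured for 15 genes. The 13 higher ones were the P450 genes Cyp2c29, Cyp2c50, Cyp2c54 and Cyp2b10, the hepatocyte genes Acaa1b, Hamp, Upp2, Apoa4, Inmt and Slc25a47, the clock output gene Dbp, the endothelial gene Esm1 and the imprinted RNA Meg3. The 2 lower ones were the heat shock gene Hspa1a and the chemokine gene Ccl3.

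Hepatocyte RNA was present in all 6 mesenchymal arrays and varied between them. The mean of 23 hepatocyte markers, which include albumin, the fibrinogens and apolipoproteins, was 8.82, 9.84 and 9.53 in the 3 water arrays. It was 10.55, 9.60 and 9.26 in the 3 phenobarbital arrays, against 13.65 to 13.80 in the hepatocyte arrays. Water array 1 was the lowest and phenobarbital array 1 the highest, and the other 4 arrays, of both groups, lay between 9.26 and 9.84. The treated group was higher by 0.41 (means of 9.39 ± 0.52 and 9.81 ± 0.67, SD, n = 3 each), with an exact two-sided permutation p of 0.5, where 3 arrays against 3 cannot give less than 0.1. Without phenobarbital array 1 the difference was 0.04, and without water array 1 it was 0.12. Without both it was −0.25, an alternative chosen after the data were seen.

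**Figure D1:**
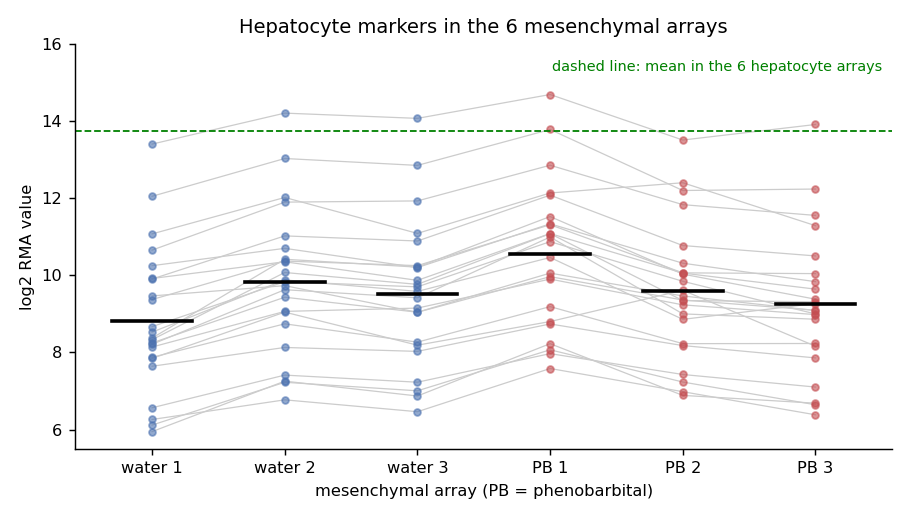
The log2 RMA value of 23 hepatocyte markers (points, joined by a line for each gene) in each mesenchymal array, with the mean of the markers as a black bar and the mean over the 6 hepatocyte arrays as a dashed line. Phenobarbital array 1 has the highest mean (10.55) and water array 1 the lowest (8.82), and the other 4 arrays of both groups overlap.

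The same order appeared when each array was set against hepatocytes of the same treatment. Hepatocyte-rich genes were those at least 3 log2 units higher in the mean of the 6 hepatocyte arrays than in that of the 6 mesenchymal arrays. Over 466 of them, with a hepatocyte mean above 10, the median level in water arrays 1 to 3 was 2.86%, 4.61% and 4.02% of that in hepatocytes. In phenobarbital arrays 1 to 3 it was 7.67%, 4.87% and 3.62%. The group means were 3.83 ± 0.89% and 5.39 ± 2.07% (SD, n = 3 each) and overlapped. These percentages are an index on the array scale, not a share of cells. The signal of very abundant transcripts is compressed, so that albumin stood at 32.2% to 79.8% of its hepatocyte level, while Hnf4a, a hepatocyte transcription factor, stood at 3.99% to 9.25%.

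The genes that hepatocytes express most made up much of the upper end of the differences. Among 357 hepatocyte-rich genes tested, 317 (88.8%) were higher in the treated arrays, with a median difference of 0.30, against 51.8% and 0.00 over all genes tested. Of the 13 genes higher by at least 1, 9 were hepatocyte-rich, and neither of the 2 lower ones was. Only 12 of the 357 had groups that did not overlap (3.36%, all higher, against the 4.09% of all genes). Their standard errors were also wider, with a median of 0.31 against 0.10 for the other 7646 genes. The highest of the 6 arrays was phenobarbital array 1 for 299 of the 357 genes, and the lowest was water array 1 for 231. Without phenobarbital array 1 the median was 0.03 and 196 genes were positive. Without both arrays it was −0.12 and 112 were positive.

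The shift was smaller or not seen among the other genes. Among 605 genes at least 3 units higher in the mesenchymal arrays the median difference was −0.02, and 45.8% were positive. Among the 4655 genes within 1 unit of each other in both populations the median was 0.00, with 48.8% positive. For the 855 genes 1 to 3 units higher in hepatocytes it was 0.03, with 60.7% positive, a share above the 51.8% of all genes. The part that hepatocyte RNA had in single differences was not tested. The hepatocyte level is given below for some of the genes only, so a missing level does not mean a low one.

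**Figure D2:**
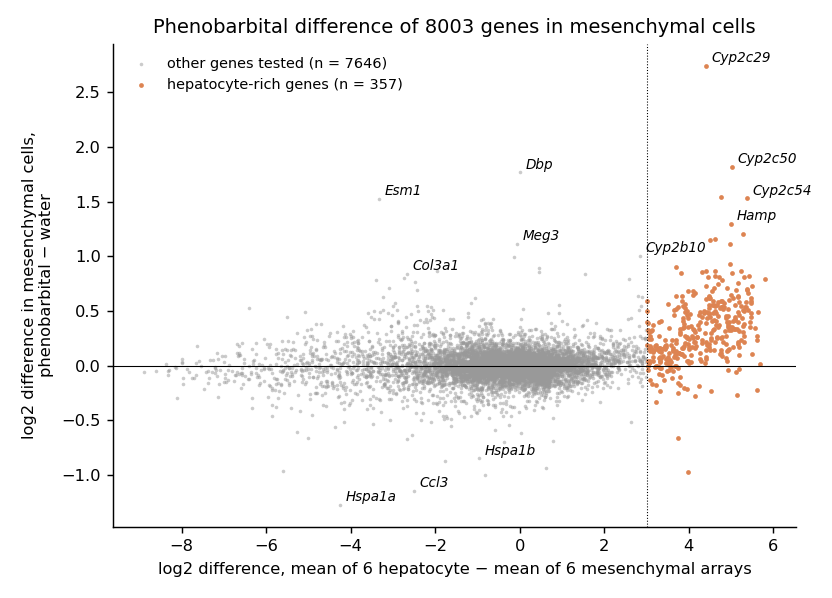
Each of the 8003 genes tested by its mean log2 difference between the 6 hepatocyte and the 6 mesenchymal arrays (horizontal) and its log2 difference between phenobarbital and water in mesenchymal cells (vertical); the dotted line marks 3 units. Of the 357 hepatocyte-rich genes to its right, 317 lie above 0, while the remaining genes centre on 0.

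The P450 genes that CAR and the related receptor PXR induce were the group with the widest differences. Of 17 measured genes in this list, 10 were tested; 9 of them were positive, with a median of 0.81, and none passed after adjustment. In 4, Cyp2c29, Cyp2c50, Cyp2c54 and Cyp2b10, the treated arrays all lay above the controls, as they did for 4.09% of all genes. Cyp2c54 exceeded the filter only through the treated arrays. The median was 0.56 without water array 1, 0.33 without phenobarbital array 1 and 0.09 without both.

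Cyp2c29, a drug-metabolising P450 and the widest difference of all, was at 6.63, 7.44 and 7.51 in water arrays 1 to 3 and at 11.58, 9.51 and 8.72 in phenobarbital arrays 1 to 3. Each treated array was above each control, and the order of the treated arrays was that of their hepatocyte markers. The difference was 2.74 (SE 0.71, 95% interval 1.05 to 4.44, unadjusted p = 0.0069 in limma), a 6.69-fold higher mean. With the hepatocyte marker level as a covariate it was 2.04, and without phenobarbital array 1 it was 1.92. In hepatocytes its mean was already 12.22 in water mice and was higher by 1.49 in treated mice, which did not pass the test (adjusted p = 0.432 in limma).

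Set against hepatocytes of treated mice, Cyp2c29 in phenobarbital array 1 reached 22.9% of their level. The median of 136 hepatocyte-rich genes of like hepatocyte level was 8.13% in that array, and 133 of the 136 were below Cyp2c29. In phenobarbital arrays 2 and 3 it stood at 5.46% and 3.15%, against 4.38% and 3.03% for the like genes. In the water arrays it stood at 2.06%, 3.62% and 3.80%, against 2.21%, 4.55% and 3.77% for the same genes, matched on the treated level. In phenobarbital arrays 2 and 3 it was thus near the level of these hepatocyte transcripts, and in phenobarbital array 1 above it. The genes were not matched on the water level, at which Cyp2c29 was lower in hepatocytes (12.22 against 13.70 in treated mice). No reading is drawn from the water arrays for that reason.

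Cyp2b10, the classic CAR target, was at 7.18, 7.40 and 7.19 with water and at 9.39, 7.82 and 7.57 with phenobarbital. The groups did not overlap, but phenobarbital array 1 lay far above the other treated arrays. The difference was 1.0 (SE 0.45, 95% interval −0.08 to 2.09, unadjusted p = 0.065 in limma). It was 0.44 without phenobarbital array 1 and 0.60 with the hepatocyte marker covariate. This is the brightest of 3 probe sets. The other 2 lay under the filter in water, at means of 4.62 and 5.06, and gave wider differences of 2.47 and 2.60, or 1.69 and 1.79 without phenobarbital array 1. In hepatocytes the gene rose by 5.52, to 13.36 (adjusted p = 0.000457 in limma), and the treated mesenchymal arrays held 5.88%, 1.98% and 1.67% of that. The median of 168 hepatocyte-rich genes of like level was 7.63%, 4.0% and 2.96% in these arrays, above Cyp2b10 in each for this probe set. In water mice the gene was low in both populations (7.84 in hepatocytes), and the mesenchymal arrays stood at 63.0%, 73.1% and 63.4% of hepatocytes. The 168 genes were matched on the treated level and are not of like level in water mice, so they are not set against these values.

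Cyp2c50 was at 6.14, 7.22 and 7.31 with water and at 10.32, 8.39 and 7.42 with phenobarbital. Cyp2c54, a close relative, was at 5.54, 5.94 and 6.58 with water and at 8.97, 6.93 and 6.75 with phenobarbital. For both genes phenobarbital array 1 was the highest and array 3 came close to the controls. The differences were 1.82 (SE 0.73) for Cyp2c50 and 1.53 (SE 0.61) for Cyp2c54. With the hepatocyte marker covariate they were 1.08 and 0.98, and Cyp2c50 was 1.02 without phenobarbital array 1. In hepatocytes Cyp2c50 had means of 12.28 with water and 13.38 with phenobarbital, and Cyp2c54 of 11.17 and 13.16. The Cyp2c genes are near copies of each other, and probes may pick up more than 1 of them.

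Cyp2c55, strongly inducible in hepatocytes, stayed under the filter. It was at 4.78, 5.03 and 4.89 with water and at 7.07, 5.44 and 4.96 with phenobarbital, so only phenobarbital array 1 was clearly above the controls. Cyp2c37 was also untested, at 8.85, 6.52 and 5.47 with phenobarbital against 4.52 to 5.65 with water. Cyp3a11, the main PXR target, was at 10.23, 11.28 and 11.13 with water and at 12.82, 10.87 and 9.99 with phenobarbital, and the groups overlapped (0.35, SE 0.71). Alas1, which starts the synthesis of haem for P450 proteins, differed by −0.05 (SE 0.16).

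**Figure D3:**
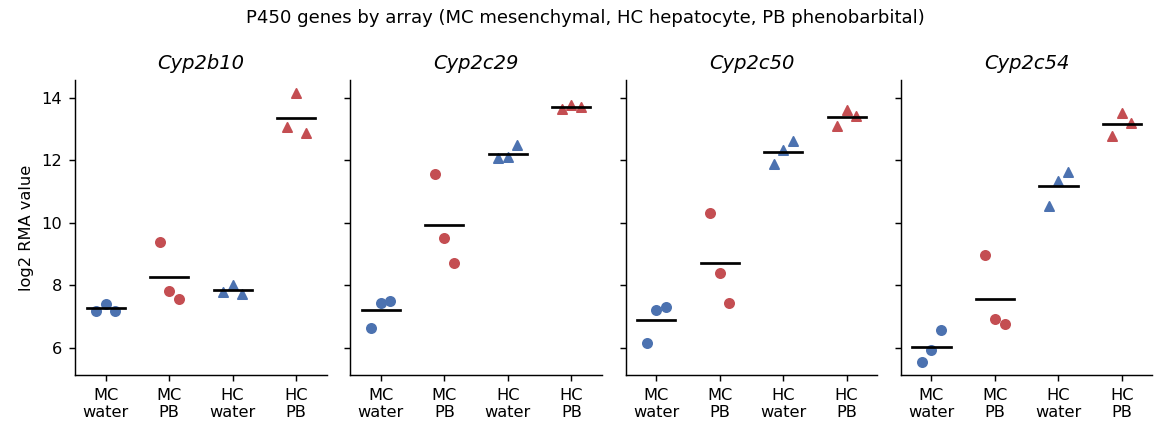
Log2 RMA values of Cyp2b10, Cyp2c29, Cyp2c50 and Cyp2c54 in each array, with the mean of each group as a bar; circles are mesenchymal (MC) and triangles hepatocyte (HC) arrays, blue water and red phenobarbital (PB). In each panel 1 of the 3 treated mesenchymal arrays, phenobarbital array 1, lies well above the others, and all lie below treated hepatocytes.

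Most conjugation and hydrolysis enzymes were highest in phenobarbital array 1, as were most hepatocyte markers. The part that hepatocyte RNA had in this was not tested. Of 18 conjugation and hydrolysis enzymes tested, 14 were positive with a median of 0.43, which was 0.17 without water array 1, 0.00 without phenobarbital array 1 and −0.15 without both. Phenobarbital array 1 held the highest value of 18 of the 25 measured. Gstt2, a glutathione transferase, was the only one whose groups did not overlap (7.48, 8.21 and 8.33 against 8.50, 8.46 and 8.35). Over all genes tested, 4.09% were higher without overlap. The receptors themselves were low: CAR (Nr1i3) was at 4.82 to 5.41 and PXR (Nr1i2) at 5.18 to 6.17 in the 6 arrays, under the filter in each, against hepatocyte means of 8.99 and 9.33. PXR was at 5.18, 5.70 and 5.43 with water and at 5.83, 6.17 and 5.77 with phenobarbital. This difference of 0.48 was not tested, and the other probe set of the gene gave −0.05. The bile acid receptor FXR (Nr1h4), which hepatocytes express at 10.63, was higher with phenobarbital (6.09, 6.70 and 6.52 against 7.17, 7.08 and 6.75; difference 0.56, SE 0.19, unadjusted p = 0.023 in limma). Of the NRF2 antioxidant targets, Nqo1 was lower in each treated array (6.90, 7.16 and 7.12 against 6.67, 6.49 and 6.87; difference −0.38, SE 0.13), and the 11 tested had a median of −0.07.

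Among the other hepatocyte genes with wide differences were 3 that act on lipids. Apoa4, an apolipoprotein, was at 6.30, 6.80 and 7.37 with water and at 8.52, 7.76 and 7.66 with phenobarbital (difference 1.16, SE 0.33). Angptl4, an inhibitor of lipoprotein lipase, was at 6.62, 7.15 and 7.21 against 7.98, 7.67 and 7.24 (0.64, SE 0.23). G0s2, an inhibitor of triglyceride lipase, was at 6.13, 6.69 and 6.87 against 7.36, 7.14 and 6.95 (0.59, SE 0.21). In all 3 genes water array 1 was the lowest and phenobarbital array 1 the highest, as in the hepatocyte markers, and hepatocytes hold them at 12.02, 11.02 and 10.69. Hamp, which encodes the iron hormone hepcidin, had overlapping groups (7.21, 8.63 and 8.86 against 10.54, 9.47 and 8.58; 1.30, SE 0.60).

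The widest negative difference, and the smallest unadjusted p among the 8003 genes, belonged to the inducible HSP70 gene Hspa1a; its neighbour Hspa1b was also among the lowest. HSP70 proteins are chaperones whose genes are switched on by the factor HSF1 under heat or protein stress. The 250 bases before the start of both genes are shown because the genes are near copies that probes may not separate; capitals mark the match to the heat shock element core GAANNTTC (which reads the same on both strands), and positions are of RefSeq build GRCm38.p6, on the minus strand, at chr17:34972157-34972406 and chr17:34959239-34959488.
Hspa1a: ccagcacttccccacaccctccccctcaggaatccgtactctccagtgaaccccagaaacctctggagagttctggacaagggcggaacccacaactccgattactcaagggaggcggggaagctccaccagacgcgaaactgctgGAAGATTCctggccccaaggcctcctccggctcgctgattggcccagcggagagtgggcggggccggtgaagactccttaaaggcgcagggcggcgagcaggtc
Hspa1b: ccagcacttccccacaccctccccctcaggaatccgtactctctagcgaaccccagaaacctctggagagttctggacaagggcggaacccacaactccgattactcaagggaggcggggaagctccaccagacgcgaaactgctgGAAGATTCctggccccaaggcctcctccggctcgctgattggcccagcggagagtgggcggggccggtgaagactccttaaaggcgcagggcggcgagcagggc
The 2 windows were identical at 247 of 250 bases. Of all 32851 promoter windows of this length in the RefSeq table, 6.69% held this core. Counted by gene, 7.73% of 27025 genes had it in a window, and so did 6 of the 11 heat shock genes with one. A match is a description of the letters, not a binding site.

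Hspa1a was at 11.32, 10.98 and 10.34 with water and at 9.51, 9.64 and 9.66 with phenobarbital. All 3 treated arrays lay close together and below each control. The difference was −1.27 (SE 0.24, 95% interval −1.84 to −0.71, unadjusted p = 0.0013 in limma, adjusted p = 0.998). Hspa1b was at 12.25, 12.61 and 12.08 against 11.64, 11.21 and 11.56, and the groups again did not overlap. Its difference was −0.85 (SE 0.17, 95% interval −1.25 to −0.44, unadjusted p = 0.0019 in limma). With 1 array left out at a time they ran from −1.54 to −1.05 and from −0.96 to −0.70, and with the hepatocyte marker covariate they were −1.16 and −0.92.

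The other heat shock genes had groups that overlapped. The 13 tested had a median of −0.21 and 2 positive members, but without water array 1 the median was 0.00 and 8 were positive. Water array 1 held the highest value of 11 of the 13. Hsph1, a co-chaperone of HSP70, was at 10.91 in that array and at 8.66 to 8.96 in the other 5. Hsp90aa1 was at 12.69 there and at 11.42 to 11.86 elsewhere. Hspb1 was lower with slight overlap, at 8.96, 8.72 and 8.90 with water and at 8.76, 8.23 and 8.43 with phenobarbital (−0.39). Its other probe set gave −0.52. Hspa1a and Hspa1b thus differed from the rest of the list in being lower with treatment against all 3 controls.

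Genes of the immediate early response, which cells switch on within minutes of a stimulus, were lower in treated arrays chiefly against 1 control. Of 20 tested, 1 was positive, with a median of −0.36; without water array 1 the median was −0.08 and 6 were positive. The list mean was 10.40 in water array 1 and 9.20 to 9.53 in the other 5 arrays of both groups. Fos was at 13.76, 12.49 and 12.55 with water and at 11.65, 12.55 and 11.98 with phenobarbital. Jun was at 12.07, 10.39 and 10.27 against 9.98, 10.31 and 10.35. Dusp1, a phosphatase that ends MAP kinase signalling, had groups that did not overlap (14.00, 13.20 and 13.49 against 13.15, 13.07 and 13.05; −0.47, SE 0.19). So did Btg2, an inhibitor of cell growth (11.28, 10.06 and 10.02 against 10.01, 9.91 and 9.67; −0.59, SE 0.34). Of the 20 tested, 2 were lower without overlap, against 3.61% of all genes.

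Chaperones and targets of the unfolded protein response behaved alike. Of 20 tested, 4 were positive, with a median of −0.13, and without water array 1 the median was 0.03 with 11 positive. Manf was at 12.34 in water array 1 and at 11.18 to 11.38 in the others. Ppp1r15a, which reverses the translational block of the stress response, was lower in each treated array (10.41, 9.80 and 10.03 against 9.54, 9.59 and 9.65; −0.49, SE 0.15, and −0.32 without water array 1).

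Clock genes set water array 1 apart from the other 5 arrays. Nr1d2, a repressor of the clock, was at 9.01 in this array and at 11.81 to 12.14 in the others of both groups. Tef, an output factor, was at 8.07 against 10.34 to 10.74, and Per3, a period gene, at 5.90 against 7.70 to 8.34. Per2 was at 5.51 against 7.33 to 8.70, Hlf at 5.69 against 6.84 to 7.83, and Nr1d1 at 6.77 against 8.12 to 8.55. Dbp was at 6.52 against 11.65 to 12.15. Arntl went the other way, at 9.36 in water array 1 and at 6.68 to 7.31 in the others. Of the 20 clock genes measured, water array 1 held the lowest value of 13 and the highest of 3. The 17 tested clock genes had a median difference of 0.30 with 14 positive, and of 0.01 with 9 positive without water array 1. No source used here gives the hour at which the mice were killed. Clock itself and Bhlhe40 had groups that did not overlap, with differences of −0.28 (SE 0.10) and 0.36 (SE 0.13). Of the 17 tested, 1 was higher and 1 lower without overlap, against 4.09% and 3.61% of all genes.

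Genes that type I interferon induces were mostly higher with treatment, by small amounts. Of 21 tested, 19 were positive, with a median of 0.19 against 0.00 over all genes. Of these, 5 reached an unadjusted p under 0.05 (2.90% of all genes did) and 3 were higher without overlap (4.09% of all genes). The median was 0.29 without water array 1, 0.23 without phenobarbital array 1 and 0.10 without either water array 2 or phenobarbital array 2. The list mean was 10.05, 9.76 and 9.77 with water and 9.88, 10.20 and 9.99 with phenobarbital, so that water array 1 lay among the treated arrays. Phenobarbital array 2 held the highest value of 14 of the 21.

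Ifit1 and Ifit3 encode proteins that bind viral RNA, and both belong to the genes that did not overlap. Their upstream 250 bases are shown (RefSeq GRCm38.p6, plus strand, chr19:34640639-34640888 and chr19:34583279-34583528), with the core of the interferon response element, TTTCNNTTT on either strand, in capitals.
Ifit1: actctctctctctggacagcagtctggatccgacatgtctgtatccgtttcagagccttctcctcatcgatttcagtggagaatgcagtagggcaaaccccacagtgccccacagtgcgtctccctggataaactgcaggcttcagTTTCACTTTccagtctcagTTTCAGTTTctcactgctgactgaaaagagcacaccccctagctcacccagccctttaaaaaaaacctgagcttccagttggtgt
Ifit3: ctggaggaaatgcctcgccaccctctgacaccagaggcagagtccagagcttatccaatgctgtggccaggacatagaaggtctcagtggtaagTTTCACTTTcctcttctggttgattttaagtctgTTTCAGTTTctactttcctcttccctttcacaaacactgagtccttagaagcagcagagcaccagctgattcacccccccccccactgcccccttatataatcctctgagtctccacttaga
Each window held 2 matches. The core was found in 9 of the 15 list genes with a window, in 10.8% of all genes and in 9.37% of all windows, which describes the letters and no more.

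Ifit3 was at 10.75, 10.69 and 10.86 with water and at 10.96, 11.26 and 11.18 with phenobarbital (difference 0.37, SE 0.10, unadjusted p = 0.0091 in limma). Ifit1 was at 8.78, 8.37 and 8.43 against 8.83, 9.07 and 8.82 (0.38, SE 0.13). Bst2, which tethers budding virus to the cell, overlapped (10.11, 10.69 and 10.27 against 10.65, 11.07 and 10.90; 0.52, SE 0.18). Of the 9 interferon-induced GTPases tested, 8 were positive, with a median of 0.13, and 0.28 without water array 1. Iigp1, which attacks the vacuoles of intracellular parasites, was the most regular of them: 11.23, 11.28 and 11.35 with water and 11.77, 11.66 and 11.57 with phenobarbital (0.38, SE 0.08, unadjusted p = 0.0021 in limma). In hepatocytes the differences were 0.77 for Ifit3, 0.83 for Ifit1 and 0.30 for Iigp1.

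**Figure D4:**
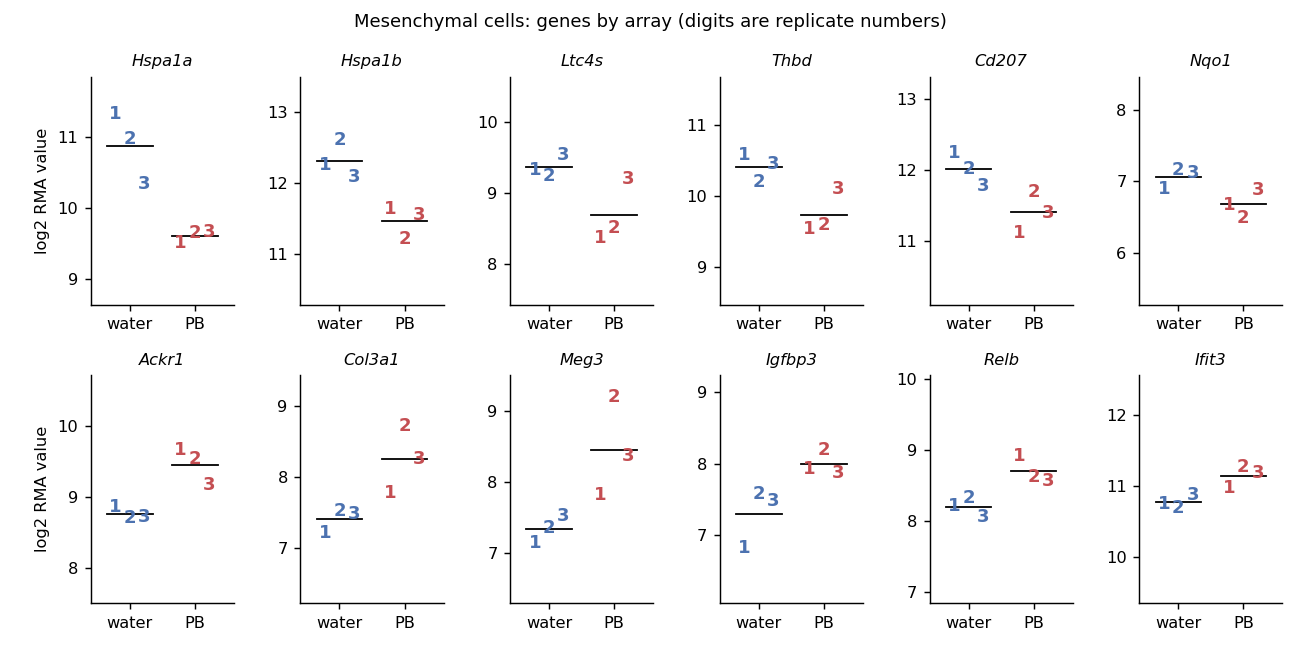
Log2 RMA values of 12 genes in the mesenchymal arrays; each digit is the replicate number of an array, in blue for water and red for phenobarbital (PB), with group means as bars, and every panel spans the same 3.2 units. The 12 genes were taken from the 616 of 8003 (7.70%) whose treated arrays all lie on one side of the controls. The groups lie far apart for Hspa1a and close for Ifit3.

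Among the signals that Kupffer cells send to hepatocytes, no cytokine passed the test. Of 21 measured cytokines, 10 were tested and 7 of these were positive, with a median of 0.13; without water array 1 the median was 0.29 and 9 were positive. Il1b, the main interleukin-1 of macrophages, was at 11.22, 10.90 and 9.56 with water and at 10.98, 11.04 and 9.59 with phenobarbital (−0.02, SE 0.55). Tnf (6.41 to 7.24) and Il6 (5.66 to 7.96) did not pass the filter, with the highest value of both in water array 1. Tgfb1, which restrains hepatocyte growth, was higher in each treated array (9.37, 9.57 and 9.21 against 9.73, 9.58 and 9.73; 0.30, SE 0.11), though array 2 of both groups lay almost level. Tnfsf10, the death ligand TRAIL, was also higher in each (7.58, 8.11 and 8.11 against 8.37, 8.18 and 8.68; 0.47, SE 0.19).

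Chemokine genes were highest in water array 1. It held the top value of 18 of 29, with a list mean of 8.74 against 7.90 to 8.13 in the other 5. Ccl3, which draws monocytes, was at 10.31 there and at 6.71 to 7.80 in the others; the neutrophil attractant Cxcl1 was at 9.61 and at 7.11 to 7.86. The 20 tested had a median of −0.09 with 6 positive, and 0.13 with 13 positive without water array 1.

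The exceptions were a ligand and a decoy receptor whose treated arrays all lay above the controls. Of the 20 chemokine genes tested, 2 were higher without overlap, against 4.09% of all genes. Cxcl10, a T cell attractant that interferon induces, was at 9.88, 9.50 and 8.94 against 10.78, 9.95 and 9.94 (0.79, SE 0.31). Ackr1, a receptor that binds chemokines without signalling and marks venous endothelium, was at 8.86, 8.71 and 8.71 against 9.65, 9.54 and 9.17 (0.69, SE 0.13, 95% interval 0.37 to 1.01, unadjusted p = 0.0016 in limma). The Ackr1 controls lay close together, and the difference stayed between 0.59 and 0.83 with any 1 array left out.

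The NF-kB pathway, through which macrophages answer danger signals, gave 10 positive members of 16 tested and a median of 0.05. Relb, a subunit of the non-canonical pathway, was at 8.21, 8.32 and 8.05 with water and at 8.92, 8.62 and 8.56 with phenobarbital (0.51, SE 0.12, unadjusted p = 0.0051 in limma). Nfkbia, the inhibitor that the canonical pathway induces, was at 13.56, 13.55 and 13.72 against 13.38, 13.33 and 13.58 (−0.18, SE 0.09). The 18 Toll-like receptor genes tested had a median of −0.08 with 6 positive, and no member under an unadjusted p of 0.05; without water array 1 the median was 0.03 with 11 positive. Cd14, the co-receptor for endotoxin, overlapped (12.13, 11.58 and 11.30 against 10.97, 11.91 and 10.97).

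Ltc4s, which makes the lipid mediator leukotriene C4, was at 9.33, 9.25 and 9.54 with water and at 8.37, 8.51 and 9.21 with phenobarbital (−0.67, SE 0.22). The other enzymes of the pathway did not separate: Alox5ap differed by −0.15 (SE 0.11) and Lta4h by −0.11 (SE 0.09). Ptgs2 and Nos2, the inducible enzymes of prostaglandin and nitric oxide synthesis, were near the floor, at 3.67 to 3.85 and 5.37 to 5.61.

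The marker levels of the cell types in the fraction overlapped between the groups for Kupffer cells and sinusoidal endothelium. Of 17 Kupffer markers 2 were positive, with a median of −0.09, and the list mean was 13.67, 13.56 and 13.42 against 13.29, 13.75 and 13.36. The 21 endothelial markers had a median of 0.06 with 16 positive. They were lowest in water array 1 for 20 of 21, and without it the median was −0.07 with 6 positive. T and NK cell markers were highest in water array 1 for 13 of 16, with a list mean of 8.52 against 7.63 to 8.11, and the median of the 13 tested turned from −0.17 to 0.13 without it.

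Phenobarbital array 2 stood apart in neutrophil and acute phase genes. S100a8 was at 11.07 there and at 7.01 to 9.53 elsewhere; S100a9 was at 11.70 and at 7.31 to 9.98. Of 10 neutrophil markers it held the highest of 9, among them Ngp (8.33 against 5.0 to 6.09) and Camp (7.61 against 5.47 to 6.03). The acute phase gene Saa3 was at 11.80 in this array and at 6.61 to 7.77 in the other 5. Without this array the median of the 3 neutrophil markers tested was −0.84 in place of 0.26. These differences belong to 1 array and not to the treated group.

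Stellate cell and matrix genes were mostly higher with treatment, with none past the test. Of 10 stellate and fibroblast markers tested, 9 were positive with a median of 0.28, which was 0.10 without water array 1 and 0.46 without phenobarbital array 1. Col3a1, a fibrillar collagen of fibroblasts, was at 7.22, 7.53 and 7.48 with water and at 7.77, 8.72 and 8.26 with phenobarbital (0.84, SE 0.24, unadjusted p = 0.010 in limma). Its partner Col1a2 overlapped slightly (7.74, 8.03 and 8.10 against 7.99, 8.62 and 8.33; 0.36, SE 0.18), and Col1a1 was near the floor at 4.87 to 5.0. Dcn and Rgs5, which mark stellate cells, differed by 0.27 (SE 0.26) and 0.45 (SE 0.33; 0.16 to 0.39 in its other 3 probe sets), with overlap. Of 21 matrix and protease genes tested, 18 were positive with a median of 0.17, and 0.06 without water array 1.

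Meg3, an imprinted long non-coding RNA, had the widest positive difference among genes that were neither hepatocyte-rich nor overlapping between the groups. It was at 7.14, 7.36 and 7.52 with water and at 7.81, 9.19 and 8.36 with phenobarbital. The groups did not overlap, and phenobarbital array 2 was highest, as in Col3a1. The difference was 1.12 (SE 0.33, 95% interval 0.32 to 1.91, unadjusted p = 0.013 in limma), and between 0.75 and 1.44 with 1 array left out. It rests on the brightest of 5 probe sets. The other one tested gave 0.45 with overlapping groups, and the 3 under the filter gave 0.56, 0.20 and −0.02. The hepatocyte mean of 7.83 was near the mesenchymal one, and there the difference was 0.03.

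Several endothelial genes were among the widest. Thbd, thrombomodulin, the endothelial brake on clotting, was lower in each treated array (10.57, 10.20 and 10.45 against 9.54, 9.59 and 10.10; −0.67, SE 0.17). Rasip1, which endothelium needs to form vessels, was higher (7.86, 8.51 and 8.65 against 8.75, 8.88 and 9.11; 0.57, SE 0.22, and 0.33 without water array 1). Igfbp3, a binding protein of insulin-like growth factor, was at 6.81, 7.57 and 7.47 against 7.92, 8.19 and 7.86 (0.71, SE 0.21, and 0.47 without water array 1). Esm1, a secreted proteoglycan of endothelium, overlapped (5.41, 7.64 and 7.89 against 8.95, 8.86 and 7.71; 1.53, SE 0.69).

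The growth factors and angiocrine signals by which endothelium and stellate cells act on hepatocytes had a median of 0.03 over 22 tested. Of these, 2 were higher without overlap, as were 4.09% of all genes, and 1 of them was Igfbp3, given above. Hgf, the main mitogen of hepatocytes, was at 8.20, 7.95 and 8.05 against 7.64, 8.08 and 8.01 (−0.16, SE 0.14, 95% interval −0.49 to 0.17). Wnt2, which endothelium of the central vein sends to hepatocytes, was at 10.66, 11.02 and 11.43 against 10.27, 10.16 and 11.32 (−0.45, SE 0.34). Bmp2 was at 12.59, 13.24 and 13.13 against 12.80, 12.83 and 12.98 (−0.12, SE 0.17). For Hgf, Wnt2 and Bmp2 the groups did not separate.

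Genes of DNA replication and mitosis were higher in the treated group mainly through 1 array. Of 20 tested, 16 were positive, with a median of 0.30, and 0.09 without phenobarbital array 1, which held the highest value of 22 of the 27 measured. Mki67, the proliferation marker, was at 8.79, 8.49 and 8.67 with water and at 9.35, 9.04 and 8.63 with phenobarbital (0.36, SE 0.19). Ube2c, which drives the exit from mitosis, had groups that did not overlap (7.54, 7.26 and 7.21 against 8.01, 7.70 and 7.64; 0.45, SE 0.14). Ccnd1, the cyclin that starts the cell cycle, did so too (10.90, 10.78 and 10.96 against 11.25, 11.07 and 11.21; 0.29, SE 0.08, unadjusted p = 0.011 in limma), while its other 2 probe sets gave 0.16 and 0.18. Among all genes tested, 4.09% were higher without overlap. The helicase genes Mcm2 to Mcm7 differed by −0.37 to 0.11.

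The remaining lower genes were of mixed function. Cd207 encodes langerin, a lectin first described in Langerhans cells, and was at 12.24, 12.01 and 11.78 against 11.12, 11.70 and 11.40 (−0.60, SE 0.18). Id4, an inhibitor of helix-loop-helix factors, was at 8.52, 9.02 and 8.80 against 7.99, 8.14 and 8.33 (−0.63, SE 0.15). Its other 2 probe sets gave −0.79 and −1.05, the latter at 10.40, 10.63 and 10.38 against 9.10, 9.49 and 9.67. Rcan1, an inhibitor of calcineurin, was at 11.88, 11.73 and 12.11 against 11.42, 11.37 and 11.45 (−0.49, SE 0.10, unadjusted p = 0.0025 in limma), and its other probe set gave −0.28. Each was lower in all 3 treated arrays than in any control. Fgd4, Ttll1, Pag1, Vps33b, Bloc1s3 and Washc4 were lower by 0.42 to 0.49 units in the same way. On the higher side, the nuclear receptor gene Nr5a2 differed by 0.56 (SE 0.18; 0.19 to 0.35 in its other 3 probe sets) and the immunoglobulin light chain locus Igk by 0.61 (SE 0.21).

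The respiratory chain and proteasome lists bounded the effect closely. The 25 respiratory chain subunits had differences between −0.12 and 0.13 and a median of 0.00, and no 95% interval reached beyond −0.35 or 0.33. The 18 proteasome subunits had differences between −0.17 and 0.10, with intervals inside −0.39 and 0.32. The 21 genes of cholesterol synthesis and uptake had a median of 0.02 with 11 positive; only the sterol exporter Abcg1 had an unadjusted p under 0.05 (11.40, 11.62 and 11.47 against 11.60, 11.95 and 11.85; 0.30, SE 0.11). Scavenger receptors, complement, NADPH oxidase, iron handling and alternative activation lists had medians between −0.09 and 0.02, with no member under 0.05. In these lists and the cholesterol list the 95% intervals of single genes were wider. They reached −1.83 and 1.89 among the scavenger receptors and 2.75 in iron handling.

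**Figure D5:**
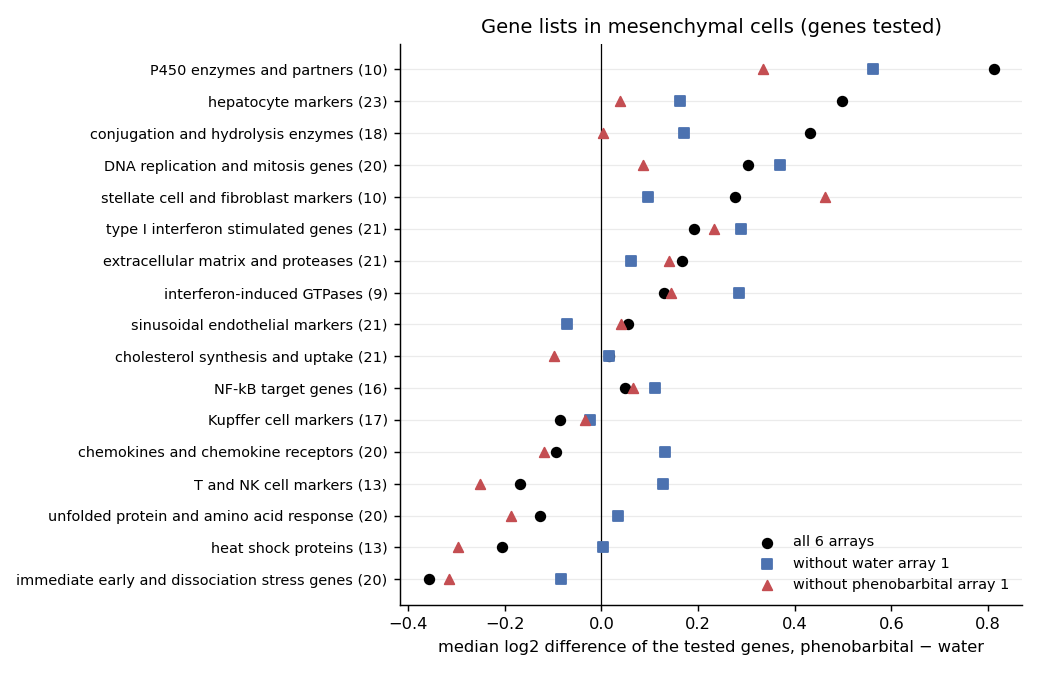
Median log2 difference between phenobarbital and water over the tested genes of 17 lists (number of genes in brackets), with all 6 arrays (circles), without water array 1 (squares) and without phenobarbital array 1 (triangles). The P450 and hepatocyte lists move toward 0 without phenobarbital array 1 (0.81 to 0.33 and 0.50 to 0.04), and the immediate early list without water array 1 (−0.36 to −0.08).

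Whether mesenchymal cells responded differently from hepatocytes was tested as a difference of the 2 effects over all 12 arrays. Of 9031 genes none (0%) passed at an adjusted p under 0.05, and 492 had an unadjusted p under that value. The smallest adjusted p was 0.108, for Cyp2b10, whose hepatocyte difference of 5.52 exceeded the mesenchymal one of 1.0 by 4.51 (SE 0.60). It passed without phenobarbital array 1 of the mesenchymal cells (adjusted p = 0.0012). Ccnd1 came next: it was lower by 0.59 in treated hepatocytes and higher by 0.29 in treated mesenchymal cells, a difference of −0.88 (SE 0.15, adjusted p = 0.571). For Hspa1a the hepatocyte difference was −0.06, and the difference of effects was 1.21 with an unadjusted p of 0.0097 in limma.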

How the data were processed

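The deposited values are log2 signals that the authors normalised with RMA, per the submitters' processing notes; RMA subtracts background, forces all arrays to 1 distribution and summarises probes, which compresses very high and very low signals. Of 22626 probe sets, 20380 had 1 gene symbol, 691 several and 1555 none. Symbols were matched to RefSeq by Entrez number (20351 matched), and each of 12393 genes was represented by its brightest probe set, judged on the average of all 12 arrays. A gene was tested if 3 or more arrays of a fit held it above their own 40th percentile. Tests were run with limma 3.58.1 in R 4.3.3, with a trend of variance on intensity and Benjamini-Hochberg adjustment over all genes tested; the threshold was 0.05. The fit used the 6 mesenchymal arrays, and the difference of effects all 12. It was tested on simulated data. The number of arrays limits the precision.

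Members and lists were chosen with earlier results of these data known. Genes were named if past the threshold, then by the widest difference among those with an unadjusted p under 0.05 and no overlap (15 of each sign), by the smallest p in each of 43 lists (up to 4 a list), from a short list of drug response, cytokine and clock genes, or as hepatocyte marker or clock gene; of these the text gives a part. Named outside this rule, after their values were seen, were Acaa1b, Inmt, Upp2, Slc25a47, Esm1, Ccl3, Cxcl1, Cyp2c37, Cyp3a11, Hsph1, Hsp90aa1, Manf, Jun, Btg2, Ngp, Camp, Saa3, Dcn, Acta2, Col1a1, Pdgfrb, Wnt2, Bmp2, Mki67 and the Mcm genes. Replicate numbers did not pair the mesenchymal arrays: the deviations of same-numbered arrays correlated at −0.29, −0.05 and 0.17. Between hepatocyte and mesenchymal arrays they correlated at 0.23, 0.21 and 0.17 with water and at 0.07, −0.05 and −0.002 with phenobarbital. The labels do not say whether such arrays share a mouse, and the difference of effects treated them as independent. Alternatives changed the filter, scaling, probe set choice, variance model and the arrays used.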

Additional observations from a re-analysis of the deposited data

How the results depend on the processing

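No gene passed between the mesenchymal groups under any alternative tried with limma: no filter, a filter at the 60th percentile, a common array median, repeated quantile normalisation, other uses of probe sets, no intensity trend, array weights, all 12 arrays in 1 fit, the hepatocyte marker covariate, hepatocyte-rich genes left out, or 1 array left out at a time (0 to 0 genes). With a replicate block, which treats same-numbered arrays as pairs, 0 genes passed here and 0 in the difference of effects. Unadjusted p-values under 0.05 numbered 148 to 755, with the most under array weights, which can be set by a few arrays. The difference of effects passed for 0 genes under all scalings and filters and for 0 to 1 with 1 array left out: Moxd1 without hepatocyte phenobarbital array 3, and Cyp2b10 without mesenchymal phenobarbital array 1.

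The hepatocyte marker difference was 0.34 to 0.47 under other gene sets and scaling, 0.04 to 0.68 with 1 array left out, and −0.25 without both water array 1 and phenobarbital array 1. The carry-over ratio was 3.46% and 4.99% after subtracting background, and 2.24% and 3.16% over the 127 genes at least 5 units higher in hepatocytes. The 31 genes compared were Cyp2b10 and the 30 widest among those with an unadjusted p under 0.05 and groups that did not overlap. Wide differences with overlapping groups, such as Dbp and Ccl3, were thus not included. With 1 array left out no sign could change, since the groups did not overlap. Nor could a sign change with another filter, no intensity trend, the replicate block, or hepatocyte arrays added to the fit. Those settings leave the estimate of a gene as it was, as does leaving out hepatocyte-rich genes. The estimate could change with other scaling, array weights, the hepatocyte marker covariate or the mean of probe sets. All 31 genes kept their sign where these fits could test them, but nearly all had been chosen for wide differences. Of the 14 with more than 1 probe set, 11 had all probe sets of 1 sign; in Meg3, Angptl4 and Igk a probe set under the filter differed by −0.02 to 0.00. Moving the arrays to a common median moved the median of all genes to −0.02. Signals near the floor of the array limit what can be said of genes under the filter.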
